A study of Mus musculus with 2 samples.

Results

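RefSeq annotates many protein-coding genes with extra transcripts that carry an NR_ identifier, meaning that no protein product is assigned to them, beside the NM_ transcripts that encode the protein. The members described here are 502 NR transcripts of 392 genes, chosen by annotation and by level: the gene also has an NM transcript, and the TPM of its transcripts (a transcript level scaled to length and library) sums to at least 10 in each library. They were taken from 787 NR transcripts in 633 such genes at any level, and from 36780 transcripts of 24532 genes in all. Of the 392 genes, 313 had 1 NR transcript and 79 had more, up to 5 in a gene. Genes just inside the level threshold were Pdlim7 (10.2 TPM in the wild-type-labelled library, 10.5 in the KO-labelled library), Plpp5 (10.4 and 11.9) and Fbxl4 (10.4 and 12.3). Just outside were Gnb1l (9.57 and 10.3), Alg11 (10.8 and 9.45) and Milr1 (11.2 and 9.34).

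The cells were CD69-positive double-positive thymocytes, precursors of T cells that carry CD4 together with CD8 and have gained CD69 after a signal through their receptor, sorted from C57BL/6 mice at an age of 6 weeks. Each genotype had 1 library, 2 in all. The wild-type-labelled library came from mice with floxed Nsrp1 alleles (NSRP1f/f), and the KO-labelled library from mice that also carried CD4Cre, so that both groups share the floxed alleles. The CD4 promoter drives Cre in the T lineage from about the double-positive stage, and the sources used here do not say whether RNA of several mice was pooled. Nsrp1 encodes NSrp70, a nuclear speckle protein with roles in alternative splicing, and the samples were made to ask what its absence does to RNA in these cells.

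Most NR transcripts of coding genes arise by alternative splicing. Where splicing adds a poison exon, skips an exon whose length breaks the reading frame or keeps an intron, the ribosome meets a stop codon too early. A stop codon well upstream of the last exon junction can mark the RNA for nonsense-mediated decay. SR proteins and hnRNP proteins, families of splicing regulators, use such exons in their own pre-mRNA to limit their own levels. The share of a gene's RNA held by an NR transcript is therefore a readout of splicing, of decay, or of both, and steady-state RNA does not separate them.

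The sequences below, read from GENCODE M21 transcripts of GRCm38 and written 5′ to 3′, show what sets some of these transcripts apart. In the first 7 the letters run from the first base of an exon that only the NR transcript has to the stop codon met there in the frame of the NM start codon, and capitals mark that stop codon. They are shown because the results on such exons turn on them.
Srsf3 NR_036613, chr17:29039454-29039487, plus strand: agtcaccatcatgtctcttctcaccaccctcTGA
Srsf7 NR_036615, chr17:80205054-80205081, minus strand: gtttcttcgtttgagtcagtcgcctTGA
Sfpq NR_045010, chr4:127035808-127035831, plus strand: gtaagaatgattgatgttggcTGA
Ankrd11 NR_037865, chr8:122900631-122900698, minus strand: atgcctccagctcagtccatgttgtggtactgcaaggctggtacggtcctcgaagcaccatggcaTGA
Gorasp2 NR_027343, chr2:70672565-70672597, plus strand: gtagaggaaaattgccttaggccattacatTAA
Pnpla2 NR_028142, chr7:141456568-141456593, plus strand: gtgatcttgagcagctagaacaaTGA
Asb7 NR_003961, chr7:66678187-66678245, minus strand: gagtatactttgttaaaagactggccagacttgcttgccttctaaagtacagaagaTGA

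In the next 5 the NR transcript uses another splice site, and capitals mark coding bases that are exonic in the NM transcript and intronic in the NR transcript, beside 20 exonic bases that both keep. These genes are among the largest positive differences of share described below. In Dhx15 the capitals end in AG, the letters of an acceptor site, and in Dcaf11 and Plpp5 they open with GT, the letters of a donor site.
Dhx15 NR_104311, chr5:52157550-52157577, minus strand: TCCCACAGtgttttgttcgccccacgga
Dcaf11 NR_037572, chr14:55561400-55561442, plus strand: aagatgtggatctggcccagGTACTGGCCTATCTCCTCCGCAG
Plpp5 NR_121642, chr8:25720316-25720375, plus strand: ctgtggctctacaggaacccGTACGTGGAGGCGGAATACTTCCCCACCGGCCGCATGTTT
Nemp2 NR_024590, chr1:52643122-52643187, plus strand: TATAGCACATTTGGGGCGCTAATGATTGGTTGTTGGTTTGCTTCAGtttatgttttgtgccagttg
Tspan5 NR_121195, chr3:138896789-138896872, plus strand: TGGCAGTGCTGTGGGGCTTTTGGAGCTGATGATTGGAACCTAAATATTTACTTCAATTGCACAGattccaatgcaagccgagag

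The last is the whole 91-base coding exon that Clk1 NR_027853 skips, a cassette exon of a kinase that phosphorylates SR proteins, and 91 is not a multiple of 3.
Clk1 NR_027853, chr1:58420121-58420211, minus strand: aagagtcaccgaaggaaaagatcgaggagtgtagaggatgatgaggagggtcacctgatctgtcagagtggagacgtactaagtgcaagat

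Reads covered annotated exons with 4199 and 5076 megabases in the wild-type-labelled and KO-labelled libraries. The targeted gene, Nsrp1, stood at 29.7 TPM in the wild-type-labelled library and 29.6 TPM in the KO-labelled library, so its gene level does not separate the labels. The sources used here do not say which exons are floxed. The defining markers of the sorted cells were high: Cd4 stood at 725 and 663 TPM and Cd69 at 430 and 522 TPM. Markers of other cells were low: the 4 B cell markers summed to 53.0 and 61.0 TPM with none at 0, the 4 macrophage and granulocyte markers to 75 and 60.8 with none at 0, the 3 dendritic cell markers to 4.49 and 3.97 with none at 0, and the 2 natural killer cell markers to 7.36 and 9.51 with none at 0. Of the 4 thymic epithelium markers Krt5, Krt8 and Foxn1 were at 0 in both libraries, while Epcam stood at 6.87 and 8.35 TPM. Of the 4 erythroid markers Hbb-bt and Hba-a1 were at 0 in both, Hbb-bs stood at 0 and 0.56 TPM and Alas2 at 0.85 and 0.61 TPM. The part of these cells in the shares below was not tested, and in bulk RNA fewer cells of a type and less RNA per cell cannot be told apart. Since each genotype has 1 library, replicate error is unknown, no test was made, and every interval below is a 95% interval that covers counting error only.

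NR transcripts held a large part of the RNA of their genes. Their TPM summed to 8467 of 35917 in the wild-type-labelled library, a share of 23.6% (interval 23.5 to 23.7), and to 7603 of 35298 in the KO-labelled library, a share of 21.5% (21.5 to 21.6). The summed share was thus lower in the KO-labelled library, and the intervals of counting error did not overlap. Abundant genes weigh heavily in this sum. Without the genes of the 10 largest losses in TPM, a removal that narrows the difference by construction, it was 20.7% and 19.8%. The median member held 10.7% of its gene's TPM in the wild-type-labelled library and 9.66% in the KO-labelled library. Single members held more than 50% of the gene in 45 and 47 cases, and all NR transcripts of a gene together did so in 60 and 61 genes, 54 of them the same genes. At the other end, 31 and 32 members were listed at 0, of which 14 were at 0 in both.

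The share was lower in the KO-labelled library for 308 members, higher for 180 and equal for 14, with a median difference of -0.64 percentage points. Over 7299 NM transcripts of genes with several transcripts and no NR transcript, measured the same way, 3575 were lower and 3451 higher, with a median difference of 0. The 959 NM transcripts of the members' own genes had a median difference of 0.06 points, a value tied to the members' since the shares of a gene sum to 100%. A difference of 10 points or more, which is a threshold on size and tests nothing, was reached upward by 30 members (5.98%) and downward by 48 (9.56%). Among the NM transcripts of genes without an NR transcript the same rule was met upward by 9.36% and downward by 9.22%, and among all 8852 transcripts of genes with several transcripts by 9.2% and 9.01%. The members' downward rate was thus near this background and their upward rate below it, but the sets differ in share. The median share in the wild-type-labelled library was 10.7% for members and 24.3% for the NM transcripts of genes without an NR transcript. Among the 290 members with at least 10% in a library, 16.6% were lower and 10.3% higher by 10 points. Among 5177 such NM transcripts, 13.0% were lower and 13.2% higher. The members' downward rate was above that background and their upward rate below it. The cut did not match the sets in share. In the wild-type-labelled library the median was 24.3% for these members and 44.8% for these NM transcripts. Only the 261 members with a share of at least 10% in the wild-type-labelled library could be lower by 10 points.

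**Figure D1:**
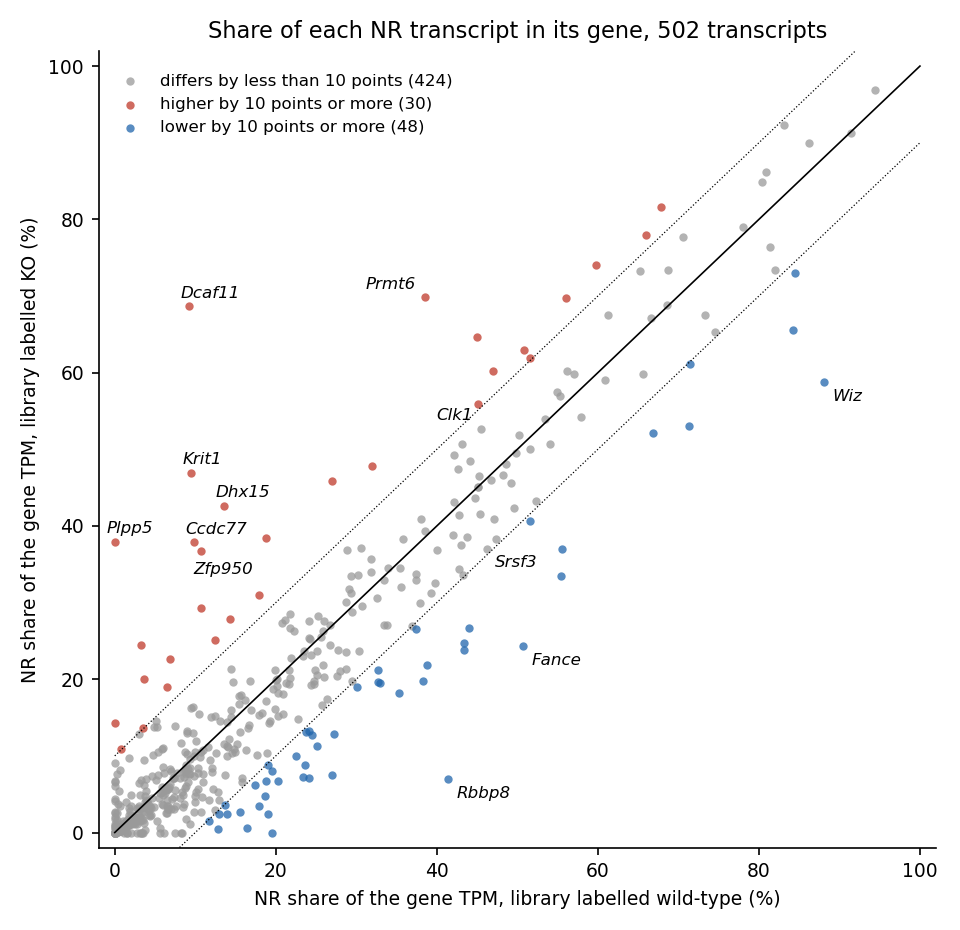
Share of the gene's TPM held by each of the 502 NR transcripts, in percent, in the wild-type-labelled library (x axis) and the KO-labelled library (y axis); the solid line marks equal shares, the dotted lines a difference of 10 percentage points. The 30 red points lie above the upper line and the 48 blue points below the lower line, and 331 members lie within 5 points of equality.

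Differences of 10 points or more were mostly exchanges within a gene. In 27 of the 30 members called higher the NR transcript was higher and the gene's other transcripts lower in the KO-labelled library, and in 38 of the 48 called lower the reverse held. The gene's total stayed within 0.5 on the log2 scale in 25 of the 30 and in 45 of the 48. The intervals of counting error did not overlap in 75 of these 78 members, which were picked for large differences, and in 237 of all 502 members. In 4 groups of about equal size, ordered from the genes with the fewest read pairs to those with the most, 19.8%, 16.8%, 14.5% and 11.0% differed by 10 points or more; read pairs also follow expression and gene length, and the part of depth in this was not tested. In Ager, Fbxl4 and Zfp950, separate NR transcripts were called in opposite directions, and the summed NR share of the gene differed by -3.10, 0.63 and 8.29 points.

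The summed NR level differed by -864 TPM. Members lower in TPM numbered 324 and those higher 164. The median level was 5.62 and 4.32 TPM in the members. It was lower in the KO-labelled library also for NM transcripts of genes without an NR transcript, at 12.7 and 11.8 TPM. The 10 largest losses among the members added up to -415 TPM. The largest were Snrnp70 NR_126539 (441 to 352 TPM), Sfpq NR_045010 (239 to 172 TPM) and Tle5 NR_074087 (76.2 to 25.8 TPM), the last from a gene that encodes a transcriptional corepressor. The largest gains were in Dhx15 NR_104311 (44.0 to 131 TPM), Prmt1 NR_045521 (7.93 to 58.7 TPM) and Dcaf11 NR_037572 (7.39 to 49.8 TPM). These genes were singled out after their values were seen.

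SR proteins and their kinases had 25 measured genes on a list of this family, of which 4 held NR members, with 5 transcripts in all. None was called at 10 points: 1 was higher and 4 lower in the KO-labelled library, with a median difference of -5.76 points. Srsf3, an SR protein that limits itself through a poison exon, had its NR transcript at 248 TPM in the wild-type-labelled library and 210.3 TPM in the KO-labelled library, or 46.2% (45.4 to 47.1) and 37.0% (36.3 to 37.8) of the gene. The other transcript of the gene went from 289 to 357 TPM, so the gene total was higher and the NR part lower in the KO-labelled library. Depth on its 456-base poison exon, which opens with the letters printed above and meets a stop codon at its base 32, was 45.8% of the mean of the neighbouring exons in the wild-type-labelled library (43.0 to 48.9) and 38.3% in the KO-labelled library (36.1 to 40.6). Share and exon depth were thus lower together. Of its 50-base words, 25.4% also occur in other genes, so part of its reads cannot be assigned with certainty.

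Srsf7, another SR protein, had its NR transcript at 145 and 127 TPM, or 49.6% (48.4 to 50.8) and 42.3% (41.3 to 43.4) of the gene. Here the depth of the 460-base poison exon relative to its neighbours was 56.3% and 55.6%, so that the lower share was not seen on the exon itself. Clk1, the kinase of SR proteins, had its exon-skipping NR_027853 at 190.6 and 192 TPM, or 45.5% (44.3 to 46.6) and 52.7% (51.6 to 53.8). Its intron-retaining NR_027854 was at 109 and 73.8 TPM, or 26.0% (25.1 to 26.9) and 20.3% (19.5 to 21). The coding transcript therefore held the smaller part of Clk1 RNA in both libraries. Srsf9 NR_036616 held 9.04% and 8.34% of its gene.

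Among 40 measured hnRNP proteins and other RNA-binding regulators, 4 genes held 5 members, 2 higher and 3 lower, none called. Hnrnpa2b1 NR_104468 was the second most abundant member in the wild-type-labelled library, at 399 TPM, and the most abundant in the KO-labelled library, at 434 TPM, with shares of 30.7% (30.1 to 31.2) and 29.6% (29.1 to 30.1). Khdrbs1, which encodes the RNA-binding protein Sam68, had its NR transcript at 112 and 83.4 TPM, or 37.9% (36.8 to 39.0) and 29.9% (28.9 to 30.8). Tardbp, which encodes TDP-43, a protein that regulates its own mRNA, differed little: NR_027864 was at 34.1 and 34.0 TPM, 21.9% and 22.8%. It overlaps Masp2, and 30.8% of its words occur in other genes. Hnrnpa1 NR_104427 held 54.9% and 57.4%, but 74.1% of its words occur elsewhere, so its level is uncertain.

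Of 48 measured spliceosome genes, 4 held 6 members, 2 higher and 4 lower, and 1 was called. Snrnp70, a protein of the U1 snRNP, had the most abundant member in the wild-type-labelled library: NR_126539 stood at 441 and 352 TPM, 60.9% (60.2 to 61.6) and 59.0% (58.2 to 59.7). Its NR_126538 was at 87.0 and 50.5 TPM, 12% and 8.47%. Luc7l, a U1-associated factor, held 35.5% and 34.5% in NR_037905 and 26.7% and 27.0% in NR_037906, with overlapping intervals in both. Sf1, which binds the branch point, went from 42.3 to 25.5 TPM in NR_122118, 16.3% (15.5 to 17.0) to 10.7% (10.2 to 11.3). The depth of the exon it skips was 73.9% of its neighbours in the wild-type-labelled library (63.2 to 86.1) and 83.9% in the KO-labelled library (72.3 to 96.9).

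Dhx15, a helicase that takes spent spliceosomes apart, was the called member. Its NR_104311 stood at 44.0 TPM in the wild-type-labelled library and 131 TPM in the KO-labelled library, or 13.5% (12.8 to 14.2) and 42.7% (41.7 to 43.6), with the gene at 326 and 308 TPM. The transcript differs from its main NM transcript by the 8 bases printed above and by nothing else, so no exon depth measures it apart. Of 18 measured genes of nonsense-mediated decay and the exon junction complex, none had a member. Neither did the lists of 25 cell cycle genes and 20 DNA repair genes. Of 47 T cell receptor and T lineage genes 5 held 6 members, all within 1 point of equality. Their median shares were only 1.04% and 0.67%, which left little room for a larger fall. Of 96 ribosomal protein genes 2 held 3 members on that list, all lower by less than 1 point. Here the median shares were 0.77% and 0.18%.

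Beyond these lists, Sfpq, a paraspeckle protein, had NR_045010 at 239 and 172 TPM, 42.7% (41.9 to 43.6) and 34.4% (33.6 to 35.2). The depth of its 47-base exon was 69.3% and 69.8% of the neighbouring exons of the NR transcript, 1 of which no NM transcript has. Brd2, a reader of acetylated histones, had NR_037970 at 192 and 179.7 TPM, 61.2% and 67.6%. Its 92-base poison exon stood at 34.6% and 38.0% of its neighbours, with intervals that overlap (26.9 to 43.9 and 29.8 to 47.9).

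**Figure D2:**
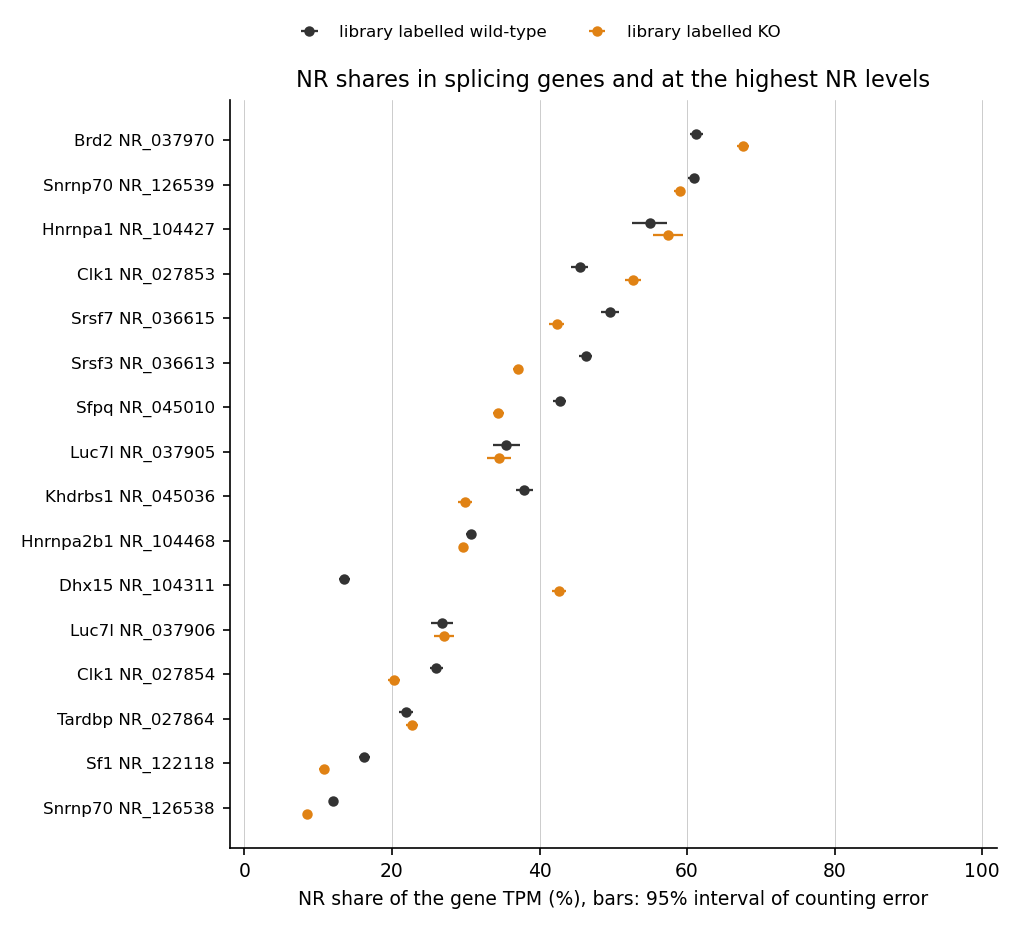
NR share of the gene's TPM, in percent, for the members on the splicing lists with a share of at least 10% in a library and for the 6 highest NR levels; black points are the wild-type-labelled library, orange points the KO-labelled library, bars the 95% intervals of counting error. Dhx15 moves from 13.5% to 42.7%, while the others lie within 10 points of equality.

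The largest positive difference was in Dcaf11, a substrate receptor of a cullin ubiquitin ligase. Its NR_037572 (chr14:55560029-55570064) stood at 7.39 TPM in the wild-type-labelled library and 49.8 TPM in the KO-labelled library, 9.24% (7.94 to 10.7) and 68.7% (66.7 to 70.7), with the gene at 80.0 and 72.5 TPM. The depth given to it in the KO-labelled library was uneven. Its first exon had a depth of 2.6 and its second exon, which ends at the donor site printed above, 22.7, while exons 4 to 15, where the NM transcripts have the same letters or overlap, had 91.4 to 152.8. Total depth on the second exon was 83.9 in the wild-type-labelled library and 55.4 in the KO-labelled library. Most of the depth given to it thus lay on exons that do not set it apart.

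Plpp5, a lipid phosphatase gene near the level threshold, had NR_121642 listed at 0 in the wild-type-labelled library, against 4.52 TPM in the KO-labelled library, or 38.0% (31.1 to 45.2). The gene had 135 and 195 read pairs, so the count of 0 allowed up to 2.69% of the gene's read pairs. Krit1, which encodes a scaffold protein of cell junctions, had NR_033173 at 4.08 and 18.2 TPM, 9.51% (8.35 to 10.8) and 46.9% (45.0 to 48.9). The 148-base exon that only this transcript has went the other way: its depth was 22.9 and 15.2, or 12.1% (6.90 to 19.7) and 8.63% (4.27 to 15.6) of its neighbours.

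Prmt6, an arginine methyltransferase, had NR_024139 at 17.8 and 27.7 TPM, 38.5% (35.6 to 41.4) and 69.8% (67.1 to 72.5). Its 1752-base last exon had a depth of 30.7 and 42.0, which was 37.8% and 36.1% of the exon before it, and 31.1% of its words occur in other genes. Prmt1, the main asymmetric arginine methyltransferase, had NR_045521 at 7.93 and 58.7 TPM, 3.31% (2.71 to 4.0) and 24.5% (23.2 to 25.9), at a gene total of 239 TPM in both. Its own 141-base exon stood at 13.8% (8.28 to 21.7) and 8.0% (4.60 to 13.0) of its neighbours. The last exon listed for it had a total depth of 134 in the wild-type-labelled library and 2.9 in the KO-labelled library, while the exon before it had 644 and 1010.

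Ankrd11, a chromatin regulator, and Gorasp2, a Golgi stacking protein, gain an exon in the NR transcript. In the frame of the NM start codon this exon holds an early stop codon. GENCODE types the intron chain of Gorasp2 NR_027343 as protein coding and has no match for that of Ankrd11 NR_037865. Ankrd11 NR_037865 was at 46.3 and 54.0 TPM, 27.0% (26.3 to 27.8) and 45.9% (45.0 to 46.8), while the NM transcript went from 125 to 63.7 TPM. The exon's relative depth was 33.6% (24.0 to 46.0) and 30.5% (20 to 44.8). Gorasp2 NR_027343 was at 10.2 and 28.7 TPM, 10.8% (9.45 to 12.2) and 29.4% (27.6 to 31.1), with an exon depth of 10.5% (5.0 to 19.7) and 12.6% (6.65 to 22.0). In neither gene did the exon's intervals separate.

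The remaining positive differences among the 12 largest had no internal exon of their own. Tspan5, a tetraspanin, went from 18.8% (15.6 to 22.2) to 38.4% (34.7 to 42.2) in NR_121195, and Nemp2, a nuclear envelope protein, from 45.0% (42.0 to 48.1) to 64.7% (61.8 to 67.5) in NR_024590. Zfp950, a zinc finger gene, went from 10.7% to 36.7% in NR_131955. Ccdc77, a coiled-coil gene that overlaps Kdm5a, went from 9.83% (7.19 to 13.0) to 37.9% (33.7 to 42.3) in NR_045558. The first exon of this transcript, of 284 bases, is in no NM transcript and had a depth of 1.02 and 1.26. The 220-base exon that Ccdc77 NR_045558 skips stood at 72.7% (45.9 to 113) of its neighbours in the wild-type-labelled library and 52.4% (31.7 to 84.3) in the KO-labelled library, a difference in the direction of the share with intervals that overlap.

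**Figure D3:**
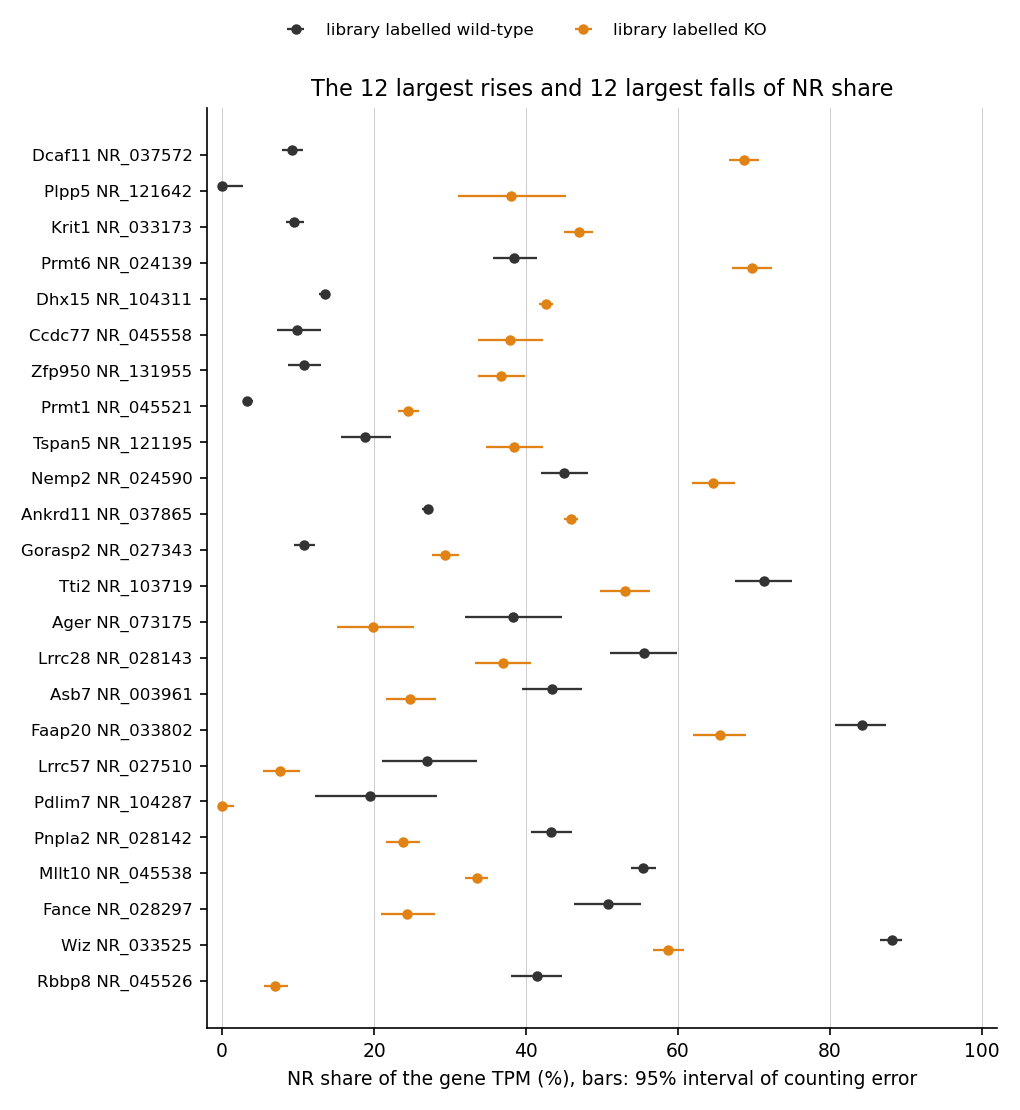
NR share of the gene's TPM, in percent, for the 12 largest positive and 12 largest negative differences of share; black points are the wild-type-labelled library, orange points the KO-labelled library, bars the 95% intervals of counting error. The differences run from 59.5 points in Dcaf11 to -34.5 points in Rbbp8, and no pair of intervals overlaps.

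The largest negative difference was in Rbbp8, which encodes CtIP, a DNA end resection factor. Its NR_045526 stood at 11.6 and 1.93 TPM, 41.4% (38.1 to 44.8) and 6.93% (5.49 to 8.61), with the gene at 28 and 27.8 TPM. The 127-base exon that it skips had a depth of 98.2% of its neighbours in the wild-type-labelled library (67.5 to 139) and 95.6% in the KO-labelled library (69.8 to 129), so the exon showed no drop at either share. Wiz, a zinc finger partner of histone methyltransferases, had NR_033525 at 45.6 and 29.1 TPM, 88.1% (86.6 to 89.6) and 58.7% (56.7 to 60.8). Of its own exons, that of 171 bases stood at 83.7% and 86.3% of the mean of its neighbours. Those neighbours were unlike in depth: 13.4 and 11.9 on the exon before it, and 95.5 and 98.2 on the exon after it. The other exons of its own, of 180 and 73 bases, had depths of 4.84 and 4.48, and of 3.28 and 4.36.

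Fance, a protein of the Fanconi anaemia core complex, went from 15.2 to 6.56 TPM, 50.8% (46.3 to 55.2) to 24.3% (20.9 to 28), in NR_028297, and Faap20, which binds that complex, in NR_033802 from 41.9 to 36.5 TPM, 84.2% (80.7 to 87.4) to 65.5% (62.0 to 69). Pnpla2, the first lipase of fat breakdown, had NR_028142 at 24.8 and 11.6 TPM, 43.4% (40.7 to 46.1) and 23.7% (21.6 to 26.0). Its 82-base poison exon had only 3.71% (0.22 to 17.0) and 8.33% (1.72 to 24.6) of the depth of its neighbours, far below the share in both libraries. Asb7, a substrate adaptor of ubiquitin ligases, had NR_003961 at 6.28 and 3.15 TPM, 43.4% (39.5 to 47.4) and 24.7% (21.6 to 28.1), and its 89-base exon at 79.7% (40.0 to 144) and 64.6% (31.4 to 119). A second exon of its own, of 75 bases, stood at 16.7% and 19.4%.

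Mllt10, a partner of the histone methyltransferase DOT1L, went from 55.5% to 33.5% in NR_045538, and Lrrc57 from 27.0% to 7.56% in NR_027510; they overlap Dnajc1 and Haus2, and both keep the coding frame. Lrrc28 went from 55.5% to 36.9% in NR_028143, and Ager, a receptor of glycated proteins, from 38.2% to 19.8% in NR_073175. Tti2, a cofactor for the folding of large kinases, went from 71.3% to 53.0% in NR_103719 and overlaps Mak16. Pdlim7 NR_104287 held 19.5% (12.3 to 28.3) in the wild-type-labelled library and was listed at 0 in the KO-labelled library, which allowed up to 1.53% of the gene's read pairs. Its depth in the wild-type-labelled library lay on exons 6 and 9, while the other 7 were near 0, and all 9 have the same ends as exons of NM transcripts. On exon 9 the total depth was 9.9954 in the wild-type-labelled library, given to the NR transcript, and 17.1 in the KO-labelled library, given to other transcripts.

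The 6 highest mean shares were in H2-T10 (94.4% and 96.9%), Rps27 (91.4% and 91.2%), Abhd11 (86.2% and 90.0%), Stx1a (83.1% and 92.3%), Ccdc134 (80.8% and 86.2%) and Cep57 (80.4% and 84.9%). Other genes hold 56.4%, 49.0% and 43.2% of the words of H2-T10, Rps27 and Abhd11, and Rps27 and Abhd11 overlap another gene, so these shares are uncertain. In Ccdc134 the 85-base exon that NR_137170 skips had 67.2% and 68.8% of the depth of its neighbours, although the transcript that lacks it was given over 80% of the gene.

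Exon depth gave a second reading of the shares. An internal exon that no NM transcript of the gene has, between neighbours that NM transcripts do have at a mean depth of at least 20, was found in 79 members. This gave 83 measurements on 75 distinct exons, since some NR transcripts of a gene share an exon. Its depth as a percent of the mean of both neighbours had a median of 15.8% in the wild-type-labelled library and 15% in the KO-labelled library, beside median NR shares of 10.5% and 10.4% in the same members. It was lower in the KO-labelled library for 53 exons and higher for 29. Across these exons the relative depth and the share had a Pearson correlation of 0.54 in the wild-type-labelled library and 0.58 in the KO-labelled library. The differences between libraries of the same measures had 0.20, with a Spearman correlation of 0.26. These are descriptions across exons that share libraries, not across samples. Of the 19 such exons in 18 members called at 10 points, 11 differed in the direction of the share and 8 in the opposite direction. Among members called higher, 4 of 9 exons were higher. Among members called lower, 7 of 10 exons were lower, including those of Ythdf3 (34.1% to 17.3%, with the share going from 18% to 3.47%), Nt5c2 (24.5% to 11.9%, share 23.7% to 13.0%) and Pcgf6 (73.1% to 41.0%, share 16.4% to 0.58%), which were chosen after their values were seen. Skipped exons were measured the same way in 146 members, with 180 exons: their depth had a median of 97.5% of the neighbours in the wild-type-labelled library and 93.3% in the KO-labelled library, lower for 105 and higher for 75. A lower share of a transcript that skips an exon would leave that exon higher, and a higher share would leave it lower. Among members called lower, 9 of 20 skipped exons were higher and 11 lower, and among members called higher, 5 of 8 were lower and 3 higher.

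**Figure D4:**
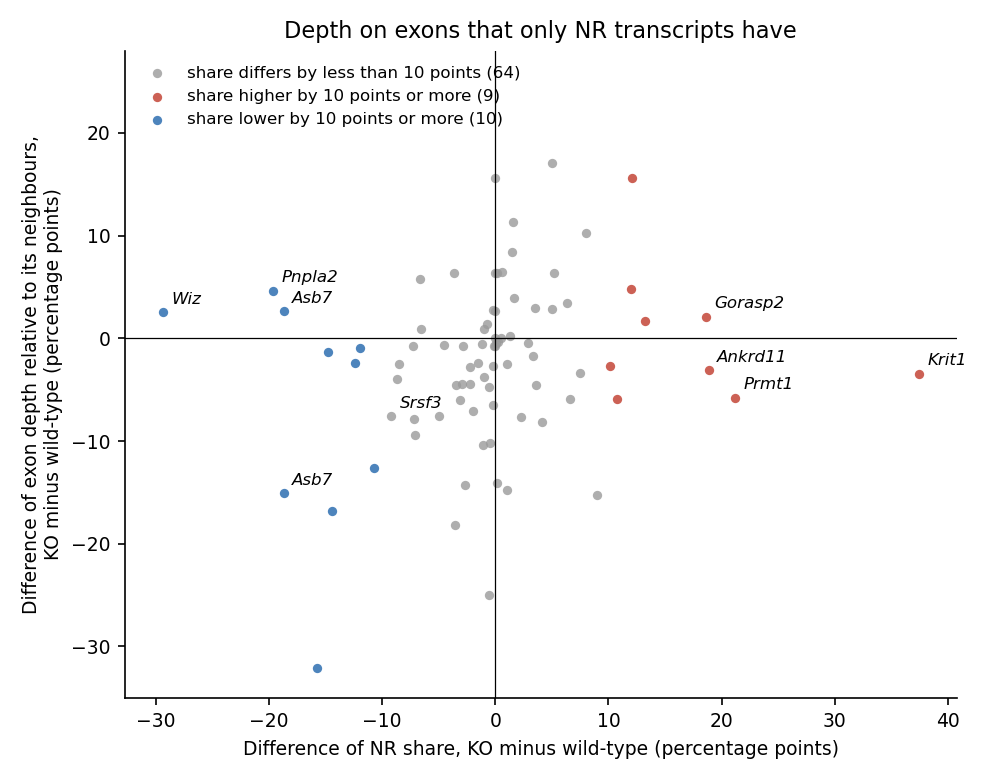
Difference of NR share (x axis) against difference of the depth of the exon relative to its neighbours (y axis), both KO minus wild-type in percentage points, for the 83 measurements on exons that only NR transcripts have. Krit1, Prmt1 and Ankrd11 lie at higher share and lower exon depth, Wiz and Pnpla2 at lower share and higher exon depth, and Srsf3 at lower values of both.

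What the members share beyond the rule is their structure. Set against the NM transcript of the gene with the highest mean TPM, 319 members differed by 1 kind of event: 120 by a changed splice site, 71 by a skipped internal exon, 46 by an added internal exon, 28 by another last exon, 23 by another first exon, 16 by a retained intron, 11 by an intron within an NM exon, and 4 had the same introns. Another 183 combined several. Retained introns had median shares of 40.6% and 37.5% in the wild-type-labelled and KO-labelled libraries, and other last exons had 4.54% and 5.32%. Changed splice sites had 19.7% and 16.3%, added exons 14% and 14.9%, and skipped exons 9.36% and 7.64%. Each of these classes had a median difference below 0, from -0.19 points for other last exons to -1.96 for introns within an NM exon. Over all 502 members 5.98% were called higher and 9.56% lower. Changed splice sites had 8 higher (6.67%) and 14 lower (11.7%), skipped exons 2 (2.82%) and 6 (8.45%), and added exons 6 (13.0%) and 3 (6.52%). The 16 with a retained intron as the only event had 0 higher and 3 lower. All 28 with a retained intron, alone or among several events, had 1 higher (3.57%) and 3 lower (10.7%).

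**Figure D5:**
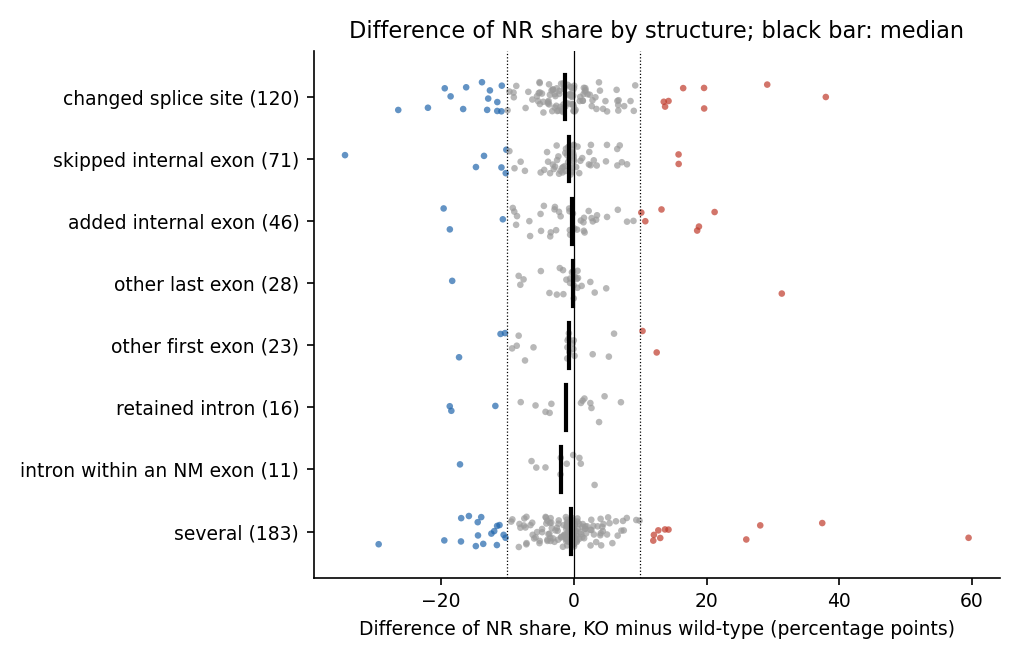
Difference of NR share, KO minus wild-type, in percentage points, by the structure that sets the NR transcript apart from the main NM transcript, with the number of members in brackets; each point is a member, red and blue mark differences of 10 points or more, and black bars mark medians. All class medians lie between -1.96 and -0.19 points, and the 4 members with the same introns are not drawn.

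Reading each member from the start codon of its gene's NM transcript gave a frame for 428 members, and in 396 of them (92.5%) the stop codon lay more than 50 bases before the last exon junction, the textbook mark of a decay target. The same reading of 388 main NM transcripts found 12 (3.09%). The NR_ and NM_ identifiers already state whether a protein is assigned, so this contrast is tied to how the members were chosen. GENCODE holds the exact intron chain of 384 members and types 242 of them as nonsense-mediated decay, 56 as processed transcript, 47 as protein coding and 28 as retained intron. Members with such a stop codon held a median 13.5% and 11.1% of their gene in the wild-type-labelled and KO-labelled libraries, against 5.25% and 5.5% for the 106 others, which include those whose frame was not read. Their median difference was -0.79 points, with 24 of 396 called higher and 40 lower, against -0.30 points in the others, with 6 and 8. Among the members named from the splicing lists this distance ran from 84 bases in Tardbp NR_027864 to 2530 in Snrnp70 NR_126539. It was 548 bases in Srsf3, 699 in Srsf7, 809 in Clk1 NR_027853 and 435 in Dhx15. In Khdrbs1 it was 234, in Hnrnpa2b1 157 and in Hnrnpa1 90, and in these 3 the stop codon is that of the coding frame.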

How the data were processed

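RNA-seq values of 2 libraries, 1 per genotype, were used, with groups from the labels. Alignment was with HISAT2 against mm10 (GRCm38), per the submitters' processing notes; read filters and the strand used in counting are not given there or in the labels. The authors ran StringTie 1.3.3b on RefSeq transcripts only, without assembling others, per the file headers. The deposited tables give TPM per transcript and gene, which sum to 1000000 in each library, and read depth per exon, split between transcripts by the program, so a share is an estimate and not a count.

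A share is TPM of the transcript over summed TPM of the gene, in percent. Read pairs were estimated as covered bases divided by 202 (2 mates of 101 bases), and intervals are exact binomial (Clopper-Pearson) on them at 95%, carried to the TPM scale; PCR copies are not independent, so they cover counting error only. For a count of 0 the upper bound is that of the interval. GENCODE M21, of the same build, gave sequences and transcript types; shared words are 50-base words found in another gene on either strand. An exon's relative depth is its total depth over the mean of its neighbours'.

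Named members were the 12 largest positive and negative differences, the 6 highest shares and levels, and members on the splicing and decay lists with a share of at least 10%, among those with 10 TPM or a difference of 10 points. Members and lists were chosen with earlier results of these data known. Some members are not reported here. Alternatives were the gene minimum, the threshold, shares of read pairs, 1 TPM added, and subsets of members. The calculation was tested on simulated read pairs already assigned to transcripts, which does not test how StringTie splits reads between transcripts. Software was Python 3.11.15 with pandas 2.3.3, numpy 2.4.6, matplotlib 3.10.9 and scipy 1.17.1.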

Additional observations from a re-analysis of the deposited data

How the results depend on the processing

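With 1 library per genotype no replicate could be left out. No paired analysis was possible because the result comes from no test. The counts of 30 members higher and 48 lower became 65 and 106 at a threshold of 5 points and 7 and 3 at 25 points, by construction. With a gene minimum of 20 TPM, which leaves fewer members, 18 were higher and 34 lower. Other alternatives, 4 of them chosen after seeing the data and 1 of these, a share of at least 10% in a library, keeping every called member by construction, left both counts within 1.5 times, apart from depth on exons of their own, where 5 of 83 exons were higher and 12 lower. The summed NR share of 23.6% and 21.5% was 24.4% and 22.7% as a share of read pairs and 23.4% and 21.4% without genes that overlap another gene; with a minimum of 20 TPM it was 21.5% in the KO-labelled library. The median difference stayed between -0.70 and -0.57 points. All 45 named members kept their direction when read pairs or 1 TPM were used; of 24 called, Pdlim7 came under 10 points with read pairs, at -8.69. Low depth limits Plpp5 (135 and 195 read pairs in the gene) and Pdlim7 (205 and 239).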

Other observations

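In the next members, which were not called above, relative exon depth differed by more than the share, but its intervals overlap. Hnrnpa2b1 NR_104468 differed by -1.06 points in share. Its 136-base exon, which no NM transcript has, stood at 82.4% of its neighbours in the wild-type-labelled library (interval 75.4 to 90.0). In the KO-labelled library it stood at 72.1% (66.7 to 77.9). The neighbours were unlike in depth: 2455 and 3523 on the exon before it, and 133 and 183 on the last exon. In Mtf2, a chromatin protein, the 148-base exon of NR_045608 stood at 78.6% (63.3 to 97.2) and 64.6% (52.2 to 79.6) of its neighbours, while the share was 9.77% and 9.97%.

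Of the 79 genes with several NR transcripts, 23 had all of them lower in the KO-labelled library and 6 had all of them higher. Hdac10, a histone deacetylase, had 3 that were lower and summed to 72.7% of the gene in the wild-type-labelled library and 52.0% in the KO-labelled library. Acd, a telomere protein, had 2 that summed to 40.7% and 21.8%, and Rreb1, a zinc finger factor, 2 that summed to 30.7% and 12.8%. In the other direction, Angel2 had 2 that summed to 28.8% and 43.6%, and Nol8, a nucleolar protein, 2 that summed to 8.24% and 20.7%. These genes were chosen after their values were seen, and no test was made.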
